A study of Mus musculus with 14 samples.

Results

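The genes described are 44 genes of DNA replication and S phase, chosen by name from what their proteins do. The values were not used to pick them, but earlier results of these data were known when they were chosen. They were read among the 18194 genes that the array's annotation names. A probe set is a group of short probes that reads 1 transcript, and only those listed with a single gene were used. Of the 44 genes, 43 had one and Chaf1a had none, and all 43 passed the filter on low signal. These 43 genes had 94 probe sets, and each gene was read on the probe set with the highest mean signal over the arrays. For 10 of the genes only 1 probe set was listed, and the other 33 had between 2 and 5.

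The study inhibited the ion channel Trpm4 in mouse T cells that had been polarised to Th1 or Th2, the helper cells that make mainly interferon gamma or mainly interleukins 4, 5 and 13. Trpm4 was inhibited by Trpm4 siRNA, with Thy1 siRNA as the control, or by a retrovirus carrying dominant negative Trpm4 (DN Trpm4), with the vector alone as the control. The retrovirus arrays come from cells stimulated for 12 h or 4 h, and each cell type also has 1 untreated array. The 14 arrays therefore cover 14 conditions, which are Th1 and Th2, each with DN Trpm4 or vector at 12 h, DN Trpm4 or vector at 4 h, Trpm4 siRNA, Thy1 siRNA or no treatment. No condition has a replicate, so matched pairs of arrays stand in for replicates, and precision is limited by how few arrays there are. The p-values measure only the spread between these pairs or, in fits without pairs, the spread between arrays grouped together. Arrays of 1 cell type and set (DN Trpm4 and vector at 1 time, or both siRNAs) correlated at 0.987 to 0.996 over the probe sets, so pairs that share a set are not independent. The labels give no strain, genotype or age, no stimulus, and no duration of stimulation for the siRNA and untreated cells. Cells of all conditions had been in polarising culture for a period of weeks. The control siRNA is directed against Thy1, a surface protein of T cells. It is therefore a control for the siRNA and not an unaltered cell.

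DNA replication starts with licensing, in which the origin recognition complex, Cdc6 and Cdt1 load the Mcm helicase on DNA in G1. At the start of S phase the helicase is activated by Cdc45 and the GINS complex, primase and polymerases copy both strands with the sliding clamp Pcna, and nucleotide enzymes supply the precursors. Many of these genes are known targets of the E2F transcription factors, which are freed from the retinoblastoma protein when cyclin D and cyclin E kinases become active. In T cells, signals through the antigen receptor and interleukin 2 start this programme within the first cell cycle.

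The promoters of 6 of the genes are shown because they carry matches to an E2F-type motif and all 6 genes rose between 4 h and 12 h in both cell types. Each is 300 bases of RefSeq sequence on build GRCm38.p6, from 250 bases before the annotated start to 50 after it, written 5′ to 3′ on the strand of the gene. Capitals mark the motif matches, and all other bases are in lower case.

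Cdc6 (chr11:98907901-98908200, plus strand): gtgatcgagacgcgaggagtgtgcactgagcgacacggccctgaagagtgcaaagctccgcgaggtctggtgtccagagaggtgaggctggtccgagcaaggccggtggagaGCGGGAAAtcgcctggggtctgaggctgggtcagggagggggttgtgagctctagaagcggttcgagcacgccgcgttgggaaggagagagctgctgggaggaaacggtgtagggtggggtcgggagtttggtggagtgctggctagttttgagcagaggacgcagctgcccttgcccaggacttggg
Hells (chr19:38930740-38931039, plus strand): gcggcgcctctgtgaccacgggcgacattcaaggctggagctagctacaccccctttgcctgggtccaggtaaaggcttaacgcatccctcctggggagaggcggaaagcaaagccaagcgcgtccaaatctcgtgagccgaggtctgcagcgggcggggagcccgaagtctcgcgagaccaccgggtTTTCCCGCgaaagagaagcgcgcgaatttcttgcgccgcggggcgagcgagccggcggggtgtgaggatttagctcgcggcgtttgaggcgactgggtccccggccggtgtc
Mcm3 (chr1:20820263-20820562, minus strand): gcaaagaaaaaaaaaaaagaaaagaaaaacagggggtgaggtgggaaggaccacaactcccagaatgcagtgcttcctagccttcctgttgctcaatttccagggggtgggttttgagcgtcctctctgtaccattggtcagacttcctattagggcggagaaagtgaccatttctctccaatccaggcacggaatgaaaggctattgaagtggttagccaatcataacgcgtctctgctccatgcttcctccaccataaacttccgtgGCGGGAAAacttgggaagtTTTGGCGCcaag
Mcm5 (chr8:75109259-75109558, plus strand): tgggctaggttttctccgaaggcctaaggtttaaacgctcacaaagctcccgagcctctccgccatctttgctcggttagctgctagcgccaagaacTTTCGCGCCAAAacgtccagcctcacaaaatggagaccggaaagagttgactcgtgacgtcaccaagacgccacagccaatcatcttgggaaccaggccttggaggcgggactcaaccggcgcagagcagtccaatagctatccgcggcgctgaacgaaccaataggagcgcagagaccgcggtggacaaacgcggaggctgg
Mcm6 (chr1:128359656-128359955, minus strand): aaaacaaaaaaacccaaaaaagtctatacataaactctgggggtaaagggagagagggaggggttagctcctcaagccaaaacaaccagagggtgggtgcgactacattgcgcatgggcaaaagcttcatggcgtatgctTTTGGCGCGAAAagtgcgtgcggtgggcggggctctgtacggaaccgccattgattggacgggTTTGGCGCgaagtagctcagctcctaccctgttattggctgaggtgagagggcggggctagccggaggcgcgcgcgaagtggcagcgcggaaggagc
Rfc3 (chr5:151651159-151651458, minus strand): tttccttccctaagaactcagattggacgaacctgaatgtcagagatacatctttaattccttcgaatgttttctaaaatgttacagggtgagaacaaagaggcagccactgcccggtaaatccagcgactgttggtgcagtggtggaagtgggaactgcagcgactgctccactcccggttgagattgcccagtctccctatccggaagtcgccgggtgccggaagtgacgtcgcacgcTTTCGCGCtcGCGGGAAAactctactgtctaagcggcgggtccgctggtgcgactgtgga

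The motif was searched as an exact match, on both strands, to TTTCCCGC, TTTCGCGC, TTTGCCGC or TTTGGCGC, and overlapping matches were each counted. A promoter entry was found for 36 of the 44 genes. The motif was present in 13 of these 36 genes (36.1%) and in 704 of 27025 genes in the whole promoter table (2.6%). The 13 genes were Cdc6, Cdt1, Hells, Lig1, Mcm3, Mcm5, Mcm6, Mcm7, Orc1, Pola1, Pold1, Rfc3 and Uhrf1. Mcm6 had 3 matches, Mcm3, Mcm5, Mcm7 and Rfc3 had 2 each, and Cdc6 and Hells had 1 each. In Mcm5 the 2 matches overlapped on opposite strands, as did 2 of the 3 in Mcm6. The letters CCAAT, on either strand, were in 20 of the 36 genes (55.6%) and in 41.1% of all genes. The letters TTTGAA, which resemble a cell cycle element known from mitotic genes, were in 3 of the 36 (8.33%) and in 20.2% of all genes. The mean share of G and C was 60% in the promoters of the replication genes and 53.8% in all promoters, and its part in these shares was not tested. A match is a description of the letters in this window and does not show binding.

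Signal is given as log2 of the quantile normalised probe set intensity plus 16, a scale with a floor of 4.0 and a median of 5.39, and differences are log2 differences on this scale, which understates changes of low signals. Control probe sets of Gapdh and Actb divided the arrays into 2 kinds. In 6 arrays (Th1 at 4 h, Th2 at 12 h and Th2 at 4 h) the log2 ratio of 3′ to 5′ signal of Gapdh was 5.43 to 5.91, against −0.25 to 0.04 in the other 8. The same ratio of Actb was 3.96 to 4.85, against 0.05 to 0.47. That of Tfrc did not divide them, with 2.13 to 3.09, against 1.47 to 2.91. Comparisons of Th2 at 12 h with 4 h, of Th1 with Th2 at 4 h, with siRNA and untreated, and of Trpm4 inhibition lie within 1 kind of array. Comparisons of Th1 at 12 h with 4 h, and of Th1 with Th2 at 12 h, set 1 kind against the other, and the condition and the kind of array cannot be told apart there. Trpm4 was 6.23 with Trpm4 siRNA and 6.95 with Thy1 siRNA in Th1, and 6.62 and 7.25 in Th2. With DN Trpm4 against vector it was 9.21 and 6.62 in Th1 at 12 h, 6.95 and 6.35 in Th1 at 4 h, 7.06 and 7.27 in Th2 at 12 h, and 6.99 and 6.90 in Th2 at 4 h. The sources do not say if its probe set reads the retroviral construct, so the DN values do not check the labels. Of the T cell markers, 6 of 7 had a probe set, and they read from 7.27 to 12.65 in Th1 and from 6.74 to 12.62 in Th2. The interleukin 4 gene Il4 read 4.25 to 5.40 in the Th1 arrays and 8.05 to 12.82 in the Th2 arrays. Ifng read 10.71 to 13.41 in Th1 arrays, and 5.48 in untreated Th2 and 9.48 to 10.70 in the other Th2 arrays, so it was not absent from Th2 cells. Other markers did not all separate the cell types. With Trpm4 and Thy1 siRNA, the Th1 marker Tbx21 read 8.73 and 8.79 in Th1, against 9.46 and 9.45 in Th2. Cxcr3 read 6.85 and 6.99, against 7.44 and 7.72. The Th2 marker Il13 read 10.16 in both Th1 siRNA arrays, against 12.04 and 11.92 in Th2. Il12rb2 was higher in Th1, and Il5, Gata3 and Ccr8 were higher in Th2, in each matched pair. Markers of B cells (4 of 5 read), erythroid cells (3 of 5) and fibroblasts (5 of 5) had medians of 4.81 to 5.35 in both cell types. Those of macrophages and dendritic cells (6 of 6) had medians of 5.40 in Th1 and 5.70 in Th2. Cd8a, a marker of CD8 T cells, reached 8.55 in the untreated Th1 array and 6.89 in the untreated Th2 array. Of the 2 CD8 markers, the summed normalised signal ran from 15.7 to 386 in Th1 and from 22.9 to 187 in Th2, and their part in the results was not tested.

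**Figure D1:**
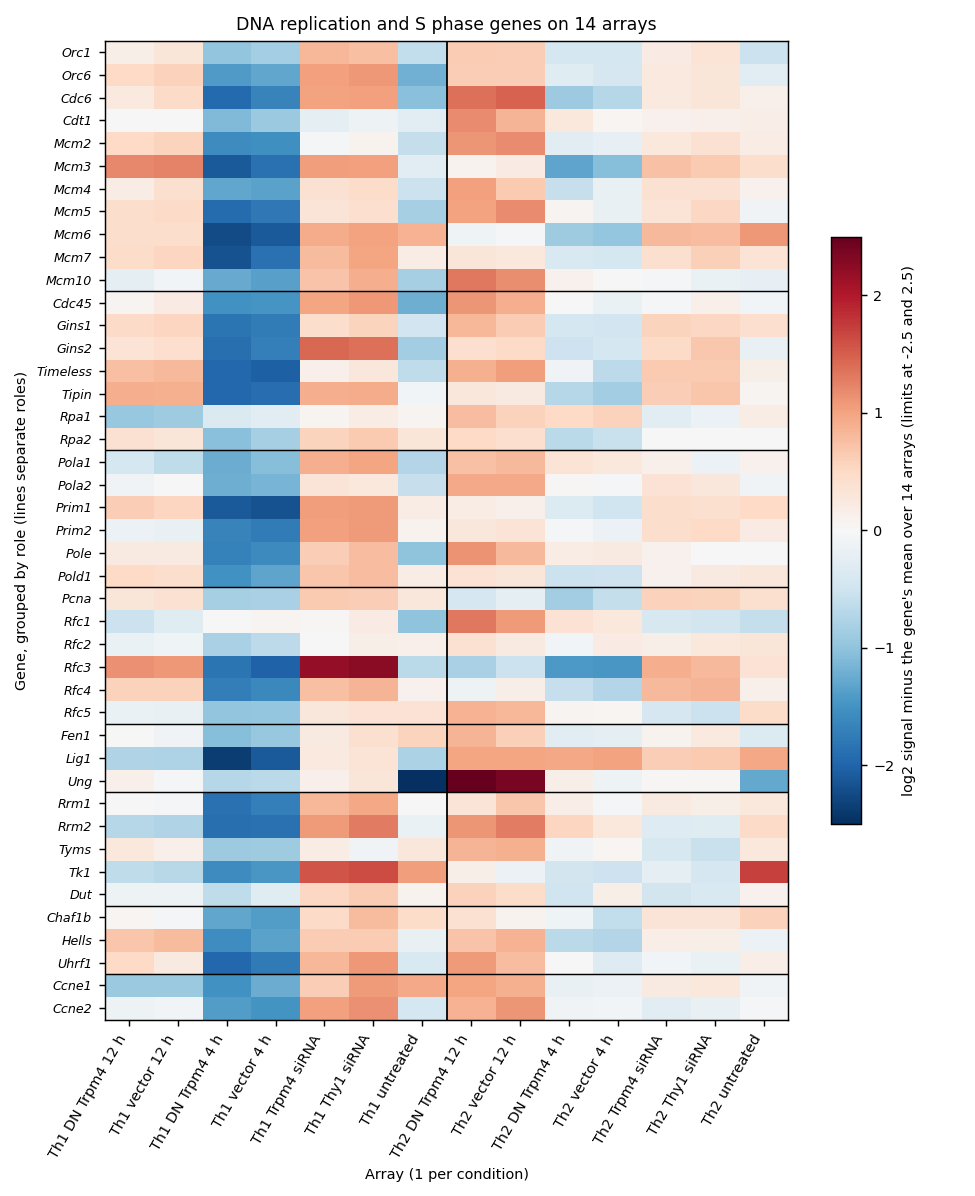
Heat map of 43 DNA replication and S phase genes (rows, grouped by role) on 14 arrays (columns), coloured by log2 signal minus the gene's mean over the arrays. The Th1 arrays at 4 h are the lowest columns, and 38 of 43 genes have both of those arrays below the other 12. The same count was not made over all probe sets.

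Across the 14 arrays, most replication genes were lowest in the 4 h Th1 arrays. In Th1 at 12 h the median signal of the 43 genes was 8.69 with DN Trpm4 and 8.64 with vector, against 6.89 and 7.13 at 4 h, and in the Th1 siRNA arrays 8.97 with Trpm4 siRNA and 9.05 with Thy1 siRNA. In Th2 it was 9.17 and 9.09 at 12 h, 7.93 and 8.01 at 4 h, and 8.49 and 8.51 with siRNA, in each case the Trpm4 inhibited array first. The untreated arrays had medians of 8.42 in Th1 and 8.47 in Th2. In all, 39 of 43 genes were lowest in a Th1 array at 4 h. Of the 43, 17 were highest in the Th1 Thy1 siRNA array, and 19 in a Th2 array at 12 h (12 with DN Trpm4 and 7 with vector). These counts were not made over all probe sets, so they do not set the replication genes apart from other genes. The range of a gene over the arrays was 1.20 to 5.46, with a median of 2.63. Ung, the uracil DNA glycosylase that removes uracil from DNA, had the widest range, with 5.29 in untreated Th1 and 10.75 in Th2 with DN Trpm4 at 12 h. Rfc3, a subunit of the clamp loader, ranged over 4.28 and Cdc6, the licensing ATPase, over 3.42. In bulk RNA, fewer cells in S phase and less RNA per cell cannot be told apart.

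In Th2 cells most replication genes were higher at 12 h than at 4 h of stimulation, and these 4 arrays were alike in 3′ bias. By limma with Benjamini-Hochberg adjustment over 29467 probe sets, 34 of 43 genes rose and 0 fell. Of all probe sets, 4.51% rose and 5.57% fell. The median difference of the 43 genes was 0.88, against 0.01 for all probe sets, and each of the 43 estimates was above 0. All 11 genes grouped with licensing passed, and these include Mcm10, which acts later. So did 6 of 7 helicase and fork genes, 4 of 6 polymerase and primase genes, 4 of 6 clamp and clamp loader genes, 3 of 3 chromatin genes and both cyclin E genes. Of the nucleotide enzymes 2 of 5 passed, and of the genes of Okazaki fragment maturation and uracil repair 2 of 3. With a pseudocount of 1 in place of 16, 0 of the 43 passed, while their median difference was 0.99. On the deposited values without further scaling, 28.5% of all calls were upward, and 31.3% after median centring, against 44.7% here.

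Among the genes grouped with licensing, Cdc6 had 9.38 with DN Trpm4 and 9.48 with vector in Th2 at 12 h, against 7.09 and 7.30 at 4 h. The difference was 2.23 ± 0.14 (SE, 2 pairs, adjusted p = 0.000792). Where 2 sets of pairs were fitted together, as both cell types were here, the SE rests on a spread pooled over the pairs of both sets. Mcm2, a subunit of the helicase ring, had 10.89 and 10.96 at 12 h, against 9.51 and 9.57 at 4 h, a difference of 1.39. Both genes had their 12 h arrays clear of their 4 h arrays, with the DN Trpm4 and vector arrays of a time close together. The times did not overlap for 42 of the 43 genes in Th2. The share of all probe sets without overlap was not counted in any comparison. Mcm3 had 9.17 and 9.29 at 12 h, against 7.76 and 8.03 at 4 h, a difference of 1.33. Mcm4 had 11.01 and 10.64 at 12 h, against 9.41 and 9.80 at 4 h, and its pairs were less alike than those of the other Mcm genes named here. Mcm5 had 11.51 and 11.67 at 12 h, against 10.57 and 10.32 at 4 h, a difference of 1.14. Mcm6 and Mcm7 complete the ring and rose by 0.84 and 0.70, the smallest differences of the 6 ring subunits. Mcm10, which acts with the helicase as forks start, had 8.38 and 8.22 at 12 h, against 7.16 and 7.04 at 4 h, a difference of 1.20. Orc1 and Orc6, of the origin recognition complex, rose by 1.07 and 0.98, and Cdt1, the loader that works with Cdc6, rose by 0.85.

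Of the genes that activate the helicase or travel with the fork, Timeless, a fork protection protein, had 8.73 and 8.87 in Th2 at 12 h, against 7.75 and 7.18 at 4 h, a difference of 1.33 ± 0.18 (SE, 2 pairs, adjusted p = 0.0046). Its partner Tipin rose by 1.04. Gins1, of the GINS complex, had 8.26 and 8.06 at 12 h, against 6.98 and 6.96 at 4 h, a difference of 1.19. Gins2 rose by 0.92. Cdc45 had 8.73 and 8.53 at 12 h, against 7.64 and 7.46 at 4 h, a difference of 1.08. For these genes the 12 h arrays lay above the 4 h arrays with no overlap, as for 42 of the 43 genes in all. Rpa2, the middle subunit of the single-strand binding protein RPA, rose by 1.07, whereas its large subunit Rpa1 had a difference of 0.14 that did not pass (adjusted p = 0.607).

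Among the polymerases in Th2, Pola2, the B subunit of polymerase alpha, rose by 0.95, and Pold1 and Pole, the catalytic subunits of the delta and epsilon polymerases, rose by 0.85 and 0.77. Pola1, the catalytic subunit of polymerase alpha, had 0.47 and did not pass (adjusted p = 0.0843), and of the primase subunits Prim1 rose by 0.58 and Prim2 had 0.41 and did not pass. Pcna had 11.22 and 11.40 at 12 h, against 10.76 and 11.04 at 4 h, a difference of 0.41 that did not pass (adjusted p = 0.0974). Of the clamp loader, Rfc1, Rfc3, Rfc4 and Rfc5 rose by 0.88, 0.77, 0.67 and 0.79, and Rfc2 had 0.23 and did not pass. Tyms, thymidylate synthase, and Rrm2, the regulated subunit of ribonucleotide reductase, rose by 0.88 and 0.79. Rrm1, the large subunit of the same enzyme, Tk1, thymidine kinase, and Dut, the dUTPase, had 0.44, 0.49 and 0.69, and none of these passed. Tyms was read on a probe set of low signal, 5.13 to 6.92, because a brighter one is shared with a pseudogene.

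Ung showed the largest difference in Th2, with 10.75 and 10.53 at 12 h, against 8.29 and 8.03 at 4 h, which is 2.48 ± 0.14 (SE, 2 pairs, adjusted p = 0.000749). Both its 12 h values were above its values on every other array. Fen1, the flap nuclease of Okazaki fragments, rose by 0.98. Lig1, the ligase that seals those fragments, did not change measurably in Th2, with 10.25 and 10.26 at 12 h, against 10.23 and 10.27 at 4 h, a difference of 0.01 (adjusted p = 0.982). Hells, a helicase that remodels chromatin, had 9.33 and 9.47 at 12 h, against 7.93 and 7.88 at 4 h, a difference of 1.50. Uhrf1, which brings the maintenance methyltransferase to newly copied DNA, rose by 1.08, and Chaf1b, a subunit of chromatin assembly factor 1, rose by 0.59. Ccne1 and Ccne2, the E cyclins that drive entry into S phase, rose by 1.10 and 1.06. The 13 genes with the E2F-type motif had a median difference of 0.85 (0.01 to 2.23), and the 22 measured genes whose promoter entry lacked it had a median of 0.88 (0.14 to 2.48).

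**Figure D2:**
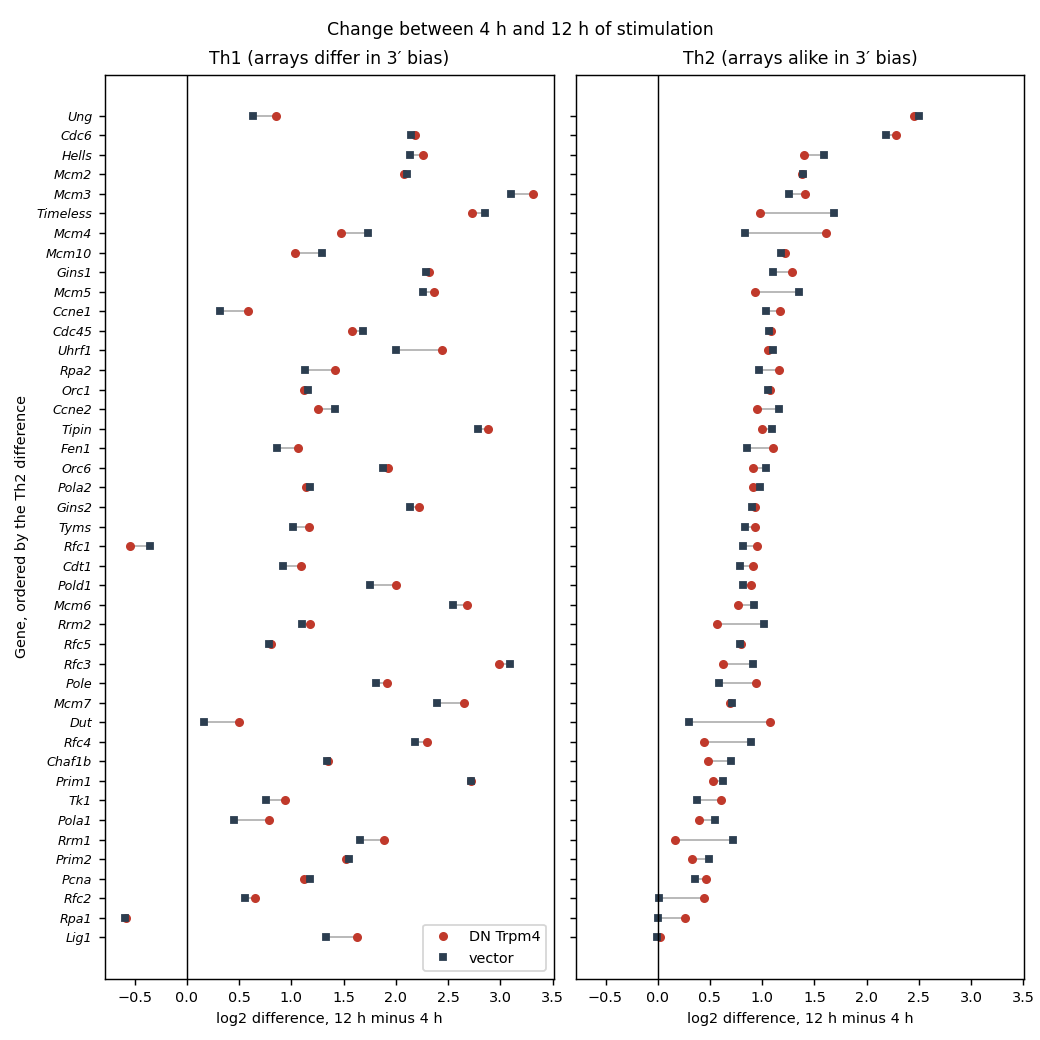
Log2 difference between 12 h and 4 h of stimulation for each of 43 genes (rows, ordered by the Th2 value), in Th1 (left) and Th2 (right), with 1 point for the DN Trpm4 pair and 1 for the vector pair. The mean over the pairs of a gene runs in Th2 from about 0 for Lig1 to 2.48 for Ung, and in Th1 from −0.59 for Rpa1 to 3.21 for Mcm3.

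The other gene lists were counted in Th2 in the same way. Of 34 further origin and replisome genes, 13 rose and 1 fell, with a median of 0.39, and the nuclease and helicase Dna2 (1.38), Atad5 (1.21), Pole2 (0.95) and Pold2 (0.93) rose. Of 18 further genes of S phase chromatin and repair that were tested, 10 rose and 0 fell, with a median of 0.62, among them the histone chaperone Nasp (1.23), the exonuclease Exo1 (1.07), the helicase Blm (0.98) and Brca1 (0.93). Of 15 nucleotide synthesis genes, 5 rose and 1 fell. Mthfd1, of folate metabolism, and the pyrimidine and purine enzymes Cad and Gart rose by 1.42, 1.19 and 1.12, and Samhd1, which degrades deoxynucleotides, fell by 1.04. Of 31 regulators of the G1 to S transition, 10 rose and 1 fell, and Skp2, Cdc25a, the E2F partner Tfdp1 and Myb rose by 1.15, 1.10, 0.84 and 0.84. Of 24 mitosis genes tested, 1 rose (Cdk1, 0.72) and 2 fell (Nusap1 by 0.70 and Ccnb2 by 0.54), with a median of −0.01. The shares for these lists are to be read against the 4.51% of all probe sets that rose and the 5.57% that fell.

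In Th1 cells most replication genes were also higher at 12 h than at 4 h, on arrays of the 2 times that differed in 3′ bias. Of 43 genes, 40 rose and 2 fell, while 27% of all probe sets rose and 29.1% fell. The median difference was 1.54, against −0.01 for all probe sets. Mcm3 had 10.29 with DN Trpm4 and 10.33 with vector at 12 h, against 6.98 and 7.22 at 4 h, a difference of 3.21 ± 0.14 (SE, 2 pairs, adjusted p = 1.55e-06). Rfc3 had 8.87 and 8.80 at 12 h, against 5.88 and 5.70 at 4 h, a difference of 3.04. Tipin had 10.41 and 10.38 at 12 h, against 7.53 and 7.59 at 4 h, a difference of 2.84. In all 3 genes the arrays of the 2 times did not overlap, as was so for all 43 genes. Timeless, Prim1, Mcm6, Mcm7, Mcm5, Gins1, Rfc4, Uhrf1 and Hells rose by 2.79, 2.72, 2.61, 2.52, 2.31, 2.30, 2.24, 2.22 and 2.20. Rpa1 fell, with 9.61 and 9.68 at 12 h, against 10.19 and 10.27 at 4 h, a difference of −0.59 (adjusted p = 0.0071). Rfc1, the large clamp loader subunit, also fell, with 7.91 and 8.16 at 12 h, against 8.46 and 8.52 at 4 h, a difference of −0.45 (adjusted p = 0.0237). Dut had 0.33 and did not pass. Of the other lists in Th1, 25 of 34 origin and replisome genes rose and 3 fell (median 0.84), and 10 of 15 nucleotide synthesis genes rose and 4 fell (median 0.96). Of 18 chromatin and repair genes 10 rose and 0 fell (median 0.74), of 31 G1 to S regulators 14 rose and 9 fell (median 0.24), and of 24 mitosis genes 10 rose and 4 fell (median 0.18).

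Probe sets of the same gene differed in the change they gave, and the part of 3′ bias in these gaps was not tested. For 47 other probe sets of these genes that passed the filter, the median absolute gap to the probe set used was 0.95 in the Th1 time difference and 0.27 in the Th2 time difference. Within 1 kind of array it was 0.39 for Th1 minus Th2 at 4 h and 0.46 for siRNA minus untreated. The sign was the same for 42 of the 47 in Th1 and 45 of the 47 in Th2. For Th1 minus Th2 it was the same for 43 at 4 h and 33 with siRNA. It was the same for 32 in siRNA minus untreated and 29 in Th1 retrovirus at 12 h minus Th1 siRNA. The genes with the widest gaps in Th1 are named here, chosen after their values were seen. For Rpa2 the Th1 difference was 1.27 on the probe set used and 3.88 on the other, for Fen1 0.96 and 3.56, and for Cdc45 1.63 and −0.45. The same pairs of probe sets gave 1.07 and 0.35, 0.98 and 0.93, and 1.08 and 0.05 in Th2. Of the genes that fell in Th1, Rfc1 had −0.45 on the probe set used and 1.21 on another, and Rpa1 had −0.59 and 0.43. Opposite signs in Th1 were also found for 1 other probe set each of Rfc2 (0.60 and −0.03) and Tyms (1.09 and −0.12). In Th2 the sign was opposite for Pola2 (0.95 and −0.00) and Chaf1b (0.59 and −0.08).

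**Figure D3:**
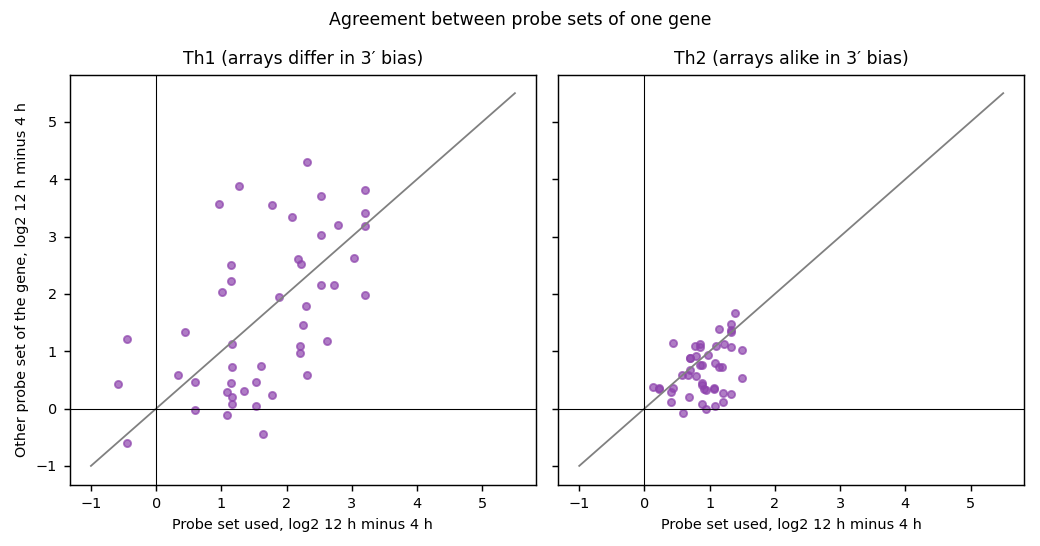
Log2 difference between 12 h and 4 h on the probe set used for a gene (x axis) against that on another probe set of the same gene (y axis), for 47 other probe sets, in Th1 (left, arrays differing in 3′ bias) and Th2 (right, arrays alike). The grey line marks equal values, and points scatter more widely about it in Th1 (median absolute gap 0.95) than in Th2 (0.27).

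The Th1 and Th2 time differences were tested against each other, which also sets the 2 kinds of array apart. The difference of the differences passed for 27 of 43 genes, of which 23 had a positive value (Th1 above Th2) and 4 a negative one, while 18.1% and 20.1% of all probe sets passed in these directions. The median was 0.70. Rfc3 (2.27 ± 0.20, SE), Prim1 (2.14), Mcm3 (1.88), Mcm7 (1.82), Tipin (1.79) and Mcm6 (1.77) had the highest values. Ung (−1.74 ± 0.20, SE), Rfc1 (−1.33), Rpa1 (−0.72) and Ccne1 (−0.66) had the negative values. Of these, Rfc1 fell in Th1 and rose in Th2, and Rpa1 fell in Th1 and had 0.14 in Th2, which did not pass. Ung had 8.28 with DN Trpm4 and 8.11 with vector in Th1 at 12 h, against 7.43 and 7.48 at 4 h, so that it rose by 0.74 there. The probe sets of a gene differed widely in this comparison too, with the same sign for 30 of the 47 others. Without the Th1 DN Trpm4 pair 17 of the 43 genes passed.

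Over both cell types together, 20 of 43 genes were higher at 12 h than at 4 h and 0 were lower, against 0.713% and 1.3% of all probe sets. The median was 1.20, and 42 of the 43 estimates were above 0. Cdc6 had the largest difference that passed, 2.20 ± 0.12 (SE, 4 pairs, adjusted p = 0.0313), with nearly equal differences in both cell types. Timeless, Hells, Gins1, Mcm2, Mcm5, Uhrf1, Orc6, Mcm4, Cdc45, Ccne2 and Mcm10 followed with 2.06, 1.85, 1.75, 1.74, 1.73, 1.65, 1.44, 1.41, 1.35, 1.20 and 1.18. The other probe set of Cdc45 had −0.20. The Th1 pairs in this fit set 1 kind of array by 3′ bias against the other, so time and kind of array cannot be told apart in them. Timeless, for example, had 2.79 in Th1 and 1.33 in Th2. This fit counts a difference between cell types as spread, and 0 of the 43 genes passed when any 1 of the 4 pairs was left out or with a pseudocount of 1. On the deposited values 16.6% of all calls were upward, and 18.5% after median centring, against 35.5% here.

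Over all 7 matched treatments, 38 of the 43 estimates were lower in Th1 than in Th2, but few passed the test. The median over the genes was below 0 in 5 of the 7 pairs of arrays and above 0 in both siRNA pairs. Of 43 genes, 0 were higher in Th1 and 4 were lower, against 3.65% and 6.14% of all probe sets. The share of the 43 genes that were lower is thus near that of all probe sets. The median difference was −0.42, against 0.01 for all probe sets. Of the 47 other probe sets, 36 had the same sign as the probe set used. Opposite signs were found for Uhrf1 (−0.42 on the probe set used and 0.79 on another), Rrm1 (−0.51 and 0.76) and Mcm5 (−0.82 and 0.38), among others. With DN Trpm4, Lig1 was 8.51 in Th1 and 10.25 in Th2 at 12 h, and 6.89 and 10.23 at 4 h. With vector it was 8.50 in Th1 and 10.26 in Th2 at 12 h, and 7.16 and 10.27 at 4 h. It was 9.51 in Th1 and 9.88 in Th2 with Trpm4 siRNA, 9.61 and 9.92 with Thy1 siRNA, and 8.47 and 10.24 untreated. Its Th1 arrays were all below its Th2 arrays, with a difference of −1.77 ± 0.36 (SE, 7 pairs, adjusted p = 0.016). Cdt1 ran from 8.31 to 9.41 over the 7 Th1 arrays and from 9.47 to 10.59 over the 7 Th2 arrays, also without overlap. Its difference was −0.78 (adjusted p = 0.0177). The other tested probe set of Cdt1 did overlap, with 6.38 to 8.89 in Th1, 7.18 to 9.15 in Th2 and a difference of −0.27. Mcm2 and Pola2 were lower in Th1 by 0.75 and 0.70 on the log2 scale, with groups that overlapped but every pair below 0. Without both 12 h pairs, in which the cell types differ in the kind of array, 0 of the 43 genes passed, and without a replicate block for the pairs 1 did. With either DN Trpm4 pair left out 2 passed, and on the deposited values 7. On the deposited values 25.1% of all calls were upward, against 37.3% here.

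**Figure D4:**
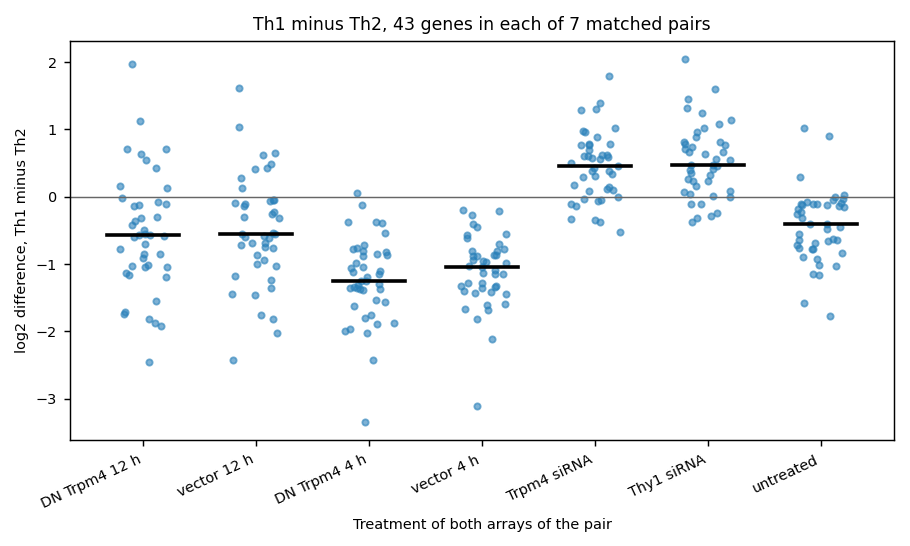
Log2 difference Th1 minus Th2 for 43 genes (points) in each of 7 matched pairs of arrays (columns), with the median as a bar. The medians lie at −0.57 and −0.55 at 12 h, at −1.24 and −1.04 at 4 h, at 0.46 and 0.48 with siRNA and at −0.41 without treatment.

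At 4 h of stimulation, on arrays alike in 3′ bias, the replication genes were lower in Th1 than in Th2. This comparison and the siRNA comparison that follows were added after the medians of the pairs had been seen, so they describe a known pattern. At 4 h 0 of 43 genes were higher in Th1 and 39 were lower, against 14.1% and 14.2% of all probe sets, with a median of −1.14. After Lig1, with −3.22 ± 0.12 (SE, 2 pairs, adjusted p = 1.31e-05), the largest difference was that of Rrm2. Rrm2 had 8.12 with DN Trpm4 and 8.15 with vector in Th1, against 10.54 and 10.27 in Th2, a difference of −2.27. Rrm1 had 7.38 and 7.54 in Th1, against 9.40 and 9.22 in Th2, a difference of −1.85. Both subunits of ribonucleotide reductase were thus low together in Th1 at this time. Pole, Mcm5, Prim1, Uhrf1, Timeless, Mcm7, Prim2, Pola1 and Cdc45 were lower, with differences of −1.84, −1.80, −1.71, −1.71, −1.64, −1.61, −1.61, −1.45 and −1.43. Rpa2, Pcna, Rfc1 and Dut did not pass, and Pcna had 10.81 and 10.84 in Th1, against 10.76 and 11.04 in Th2. All 24 mitosis genes tested were lower too, with a median of −1.70, among them Ccnb2 (−2.40), Ccna2 (−2.36) and Cdk1 (−2.30). Of 34 origin and replisome genes 0 were higher and 23 lower (median −0.62), and of 18 chromatin and repair genes 0 were higher and 13 lower (median −0.68). Of 31 G1 to S regulators 3 were higher and 11 lower, with a median of −0.27. The repressors E2f7 and E2f8 were lower (−2.02 and −1.98), and Myc was higher in Th1 (1.41).

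With siRNA the direction was the opposite. Of 43 genes, 24 were higher in Th1 than in Th2 and 0 were lower, against 17.6% and 16.9% of all probe sets, with a median of 0.54. Without the Thy1 siRNA pair 13 were higher. Tk1 had 8.84 with Trpm4 siRNA and 8.90 with Thy1 siRNA in Th1, against 7.05 and 6.85 in Th2, a difference of 1.92 ± 0.12 (SE, 2 pairs, adjusted p = 6.94e-05). Rrm2 had 11.07 and 11.30 in Th1, against 9.68 and 9.70 in Th2, a difference of 1.50. Rfc3 had 9.91 and 9.98 in Th1, against 8.62 and 8.54 in Th2, a difference of 1.37. These 3 genes had no overlap between the cell types, which held for 37 of the 43 genes. All 5 nucleotide enzymes, both E cyclins and 5 of 6 polymerase and primase genes were higher in Th1, and 4 of the 11 genes grouped with licensing were. Ccne2, Uhrf1, Dut, Cdc45, Pola1, Mcm10, Gins2, Rfc5 and Orc6 were higher by 1.31, 1.07, 1.0, 1.0, 0.96, 0.92, 0.84, 0.79 and 0.78. Timeless, Lig1, Mcm2 and Cdt1 had −0.45, −0.34, −0.31 and −0.29 and did not pass (adjusted p of 0.051 to 0.129). Of the genes named here, Cdc45 and Mcm2 had another probe set of opposite sign, at −0.78 and 0.06. All 24 mitosis genes were higher in Th1, with a median of 1.35. Of 34 origin and replisome genes 14 were higher and 0 lower (median 0.31), and of 18 chromatin and repair genes 11 were higher and 0 lower (median 0.59). Of 31 G1 to S regulators 16 were higher and 1 lower (median 0.53), and Myb had a difference of 3.91.

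The difference between cell types at 4 h minus that with siRNA is given as a description with no test, because both were chosen after their opposite signs were seen. Its median was −1.43. The value was −3.77 for Rrm2, −2.94 for Tk1, −2.88 for Lig1, −2.78 for Uhrf1, −2.68 for Ccne2 and −2.56 for Rrm1, and it was nearest to 0 for Pcna, at −0.15. The mitosis genes had a median of −3.13. The 4 h arrays and the siRNA arrays differ in 3′ bias and in virus, which cannot be told apart, and the labels do not give the stimulation of the siRNA cells. Without treatment the median Th1 minus Th2 difference was −0.41, on 1 pair of arrays and with no test.

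Some replication genes passed as higher in siRNA arrays than in untreated arrays, and none passed as lower. Of the 43 estimates, 35 were above 0 and 8 were below 0. Of 43 genes, 13 rose and 0 fell, against 21.2% and 17.1% of all probe sets. The share of the 43 genes that rose is thus not far above that of all probe sets. The median was 0.55, against 0.04 for all probe sets. By cell type, with 1 untreated array each and no test of the difference, the median was 0.88 in Th1, with 38 of 43 genes above 0, and 0.12 in Th2, with 25 of 43 above 0. Ung had 8.27 and 8.45 with Trpm4 and Thy1 siRNA in Th1, against 5.29 untreated, and 8.18 and 8.18 in Th2, against 6.87 untreated. Its difference was 2.19 ± 0.39 (SE, 4 arrays against 2, adjusted p = 0.0083). Rfc3 had 9.91 and 9.98 in Th1, against 7.05, and 8.62 and 8.54 in Th2, against 8.07, a difference of 1.70. Ung was higher with siRNA in both cell types, and Rfc3 mainly in Th1. Gins2, Orc6, Orc1, Mcm5, Tipin, Rfc4, Timeless, Pola2, Mcm4 and Prim2 rose by 1.52, 1.40, 1.10, 0.86, 0.77, 0.70, 0.67, 0.63, 0.62 and 0.61. Tk1 had −0.73 and did not pass (adjusted p = 0.329), with 8.84 and 8.90 in Th1, against 8.31 untreated, and 7.05 and 6.85 in Th2, against 8.98 untreated. Of the mitosis genes 0 of 24 rose and 8 fell, with a median of −0.93. Of 34 origin and replisome genes 6 rose and 3 fell, of 15 nucleotide synthesis genes 7 rose and 0 fell, of 18 chromatin and repair genes 4 rose and 0 fell, and of 31 G1 to S regulators 6 rose and 6 fell. Markers of other cells moved with this comparison, and not all in 1 direction. The summed normalised signal of 4 B cell markers was 86.9 and 93.9 with Trpm4 and Thy1 siRNA in Th1, against 200.3 untreated, and 96.3 and 84.2 in Th2, against 223 untreated. That of 6 macrophage and dendritic cell markers was 182 and 209.8 in Th1, against 321 untreated, and 237 and 241 in Th2, against 466 untreated. In both siRNA arrays, 3 of 4 B cell markers in Th1 and 4 of 4 in Th2 were below the untreated array, as were 3 of 6 and 4 of 6 of the macrophage markers and all 6 T cell markers in each cell type. The T cell markers include Thy1, the target of the control siRNA. Both siRNA arrays were above the untreated array for 3 of 5 fibroblast markers in Th1 and 4 of 5 in Th2. They were below it for 2 of 5 and 1 of 5. Of 3 erythroid markers, 1 was above and 2 were below in Th1, and 2 were above and 1 was below in Th2. Of 2 CD8 markers, 1 was above and 1 was below in Th1, and both were below in Th2. The part of all these markers in the result was not tested. Without the untreated Th2 array 33 of the 43 genes rose, 4 rose without either of the Th1 siRNA arrays, 7 without the Th2 Thy1 siRNA array and 6 without the Th2 Trpm4 siRNA array. On the deposited values 26 rose and 74.9% of all calls were upward, against 55.3% here, and the median of all probe sets was 0.28 there.

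Within Th1, retrovirus arrays at 12 h were lower than siRNA arrays in many replication genes, on arrays of the same kind by 3′ bias. Virus and siRNA differ together between these groups and cannot be told apart, and the labels do not give the stimulation of the siRNA cells. Each group is 1 set, an array with Trpm4 inhibited and its control, which correlated at 0.992 (retrovirus) and 0.990 (siRNA). The SE and p therefore measure only the gap between arrays within a set. Of 43 genes, 2 were higher and 26 were lower, against 22.2% and 24% of all probe sets, with a median of −0.50, against −0.05 for all probe sets. Tk1 had 6.64 with DN Trpm4 and 6.58 with vector at 12 h, against 8.84 and 8.90 with siRNA, a difference of −2.26 ± 0.10 (SE, 2 arrays each, adjusted p = 0.00022). Rrm2 had 9.30 and 9.26, against 11.07 and 11.30, a difference of −1.91. Ccne1 had 7.14 and 7.16, against 8.70 and 9.15, a difference of −1.77. None of these 3 genes overlapped between the groups, which held for 38 of the 43 genes. Pola1, Prim2, Ccne2, Rfc3, Lig1, Rpa1, Gins2, Mcm10 and Rrm1 were lower, with differences of −1.48, −1.22, −1.19, −1.11, −1.06, −1.04, −1.04, −0.96 and −0.91. Timeless (0.57, adjusted p = 0.0103) and Mcm2 (0.52, adjusted p = 0.0134) were higher. Mcm3, Cdt1, Tyms and Hells had 0.20, 0.16, 0.14 and 0.12 and did not pass. Of the mitosis genes 22 of 24 were lower, with a median of −1.29. Without the DN Trpm4 array 16 genes passed, and without the vector array 18. On the deposited values 35.5% of all calls were upward, and 36.9% after median centring, against 48.1% here, and the median of all probe sets was −0.18 and −0.16 on those scales.

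Inhibition of Trpm4, the question of the study, changed none of the replication genes by this test. Of 43 genes 0 rose and 0 fell over the 6 pairs, as for 0 of all 29467 probe sets (0%) by limma, of which 1733 had an unadjusted p under 0.05. The median difference, inhibited minus control, was −0.03. Cdc6 had 9.02 with Trpm4 siRNA and 9.04 with Thy1 siRNA in Th1, and 8.25 and 8.30 in Th2. With DN Trpm4 and vector it had 8.25 and 8.48 in Th1 at 12 h, 6.06 and 6.34 in Th1 at 4 h, 9.38 and 9.48 in Th2 at 12 h, and 7.09 and 7.30 in Th2 at 4 h. It was below its control in 6 of 6 pairs, with a difference of −0.15 ± 0.07 (SE, 6 pairs) that did not pass (adjusted p = 0.837). Mcm2 was the other gene below its control in every pair, with −0.08 (adjusted p = 0.906).

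**Figure D5:**
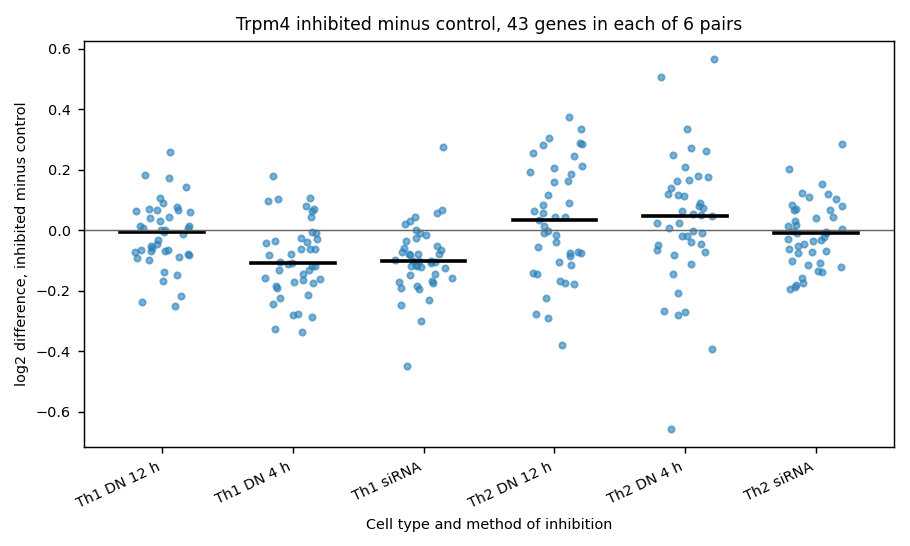
Log2 difference between Trpm4 inhibited and control arrays for 43 genes (points) in each of 6 pairs (columns), with the median as a bar. The medians lie between −0.11 and 0.05, and single genes run from −0.66 (Dut) to 0.57 (Timeless), both in Th2 at 4 h.

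By cell type, the median difference with Trpm4 inhibited was −0.07 in Th1, with 39 of 43 genes below 0. In Th2 it was −0.00, with 22 of 43 below 0. The median of all probe sets was 0.0011 in Th1 and −0.00068 in Th2. The share of all probe sets below 0 was not counted, and within a cell type the 43 genes share the same 3 pairs. The rates of calls were 0% of all probe sets in both cell types. The Th1 median by pair was −0.00 at 12 h, −0.11 at 4 h and −0.10 with siRNA, and the Th2 medians were 0.04, 0.05 and −0.01. Ccne1, Mcm7, Cdc6 and Rfc1 had the lowest Th1 values among genes below 0 in each of 3 pairs, −0.25, −0.20, −0.18 and −0.16, and did not pass (adjusted p of 0.9999 each). In Th2, Uhrf1, Tk1, Rfc1 and Mcm10 had 0.24, 0.18, 0.15 and 0.13 and did not pass, and Cdc6, Ccne2, Gins2 and Mcm2 had −0.12, −0.11, −0.11 and −0.08 and did not pass. The Th1 effect minus the Th2 effect had a median of −0.08, and 0 of 43 genes passed, with 0% of all probe sets passed; Rfc1 had the lowest value, −0.31 ± 0.14 (SE). All 24 mitosis genes were below 0 in Th1, with a median of −0.19 on the same 3 pairs, and 0 of them passed. Over the 6 pairs the estimates of the 43 genes ran from −0.18 (Dut) to 0.12 (Chaf1b), with standard errors of 0.06 to 0.10. A p that misses the threshold does not show that inhibited and control cells were alike.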

How the data were processed

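Total RNA was labelled with biotin and read on Affymetrix mouse arrays, per the labels' protocols. The deposited values are probe set intensity on a linear scale, made by the authors. The method of probe summary and of scaling is not given in these sources. Of 45101 probe sets, 34958 name 1 gene, 932 name several and 9211 name no gene, and the 64 control probe sets were used only for the 3′ to 5′ ratios. Signals were quantile normalised over 14 arrays, 16 was added and log2 was taken. Probe sets above the array's median in at least 2 arrays were kept (29467). The differences were fitted in R 4.3.3 by limma 3.58.1 (lmFit, eBayes), where each matched pair was a fixed block, two-sided, with Benjamini-Hochberg adjustment over all kept probe sets and a threshold of 0.05. The pairs are arrays with the same treatment or cell type, from the labels, which give no pairing by animal or day. The fit of siRNA minus untreated had cell type as its covariate, and that of Th1 retrovirus at 12 h minus Th1 siRNA had none. The fits were tested on simulated data.

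Named genes were those that passed, up to 12 in each direction by size. Where fewer than 4 passed, up to 4 that went the same way in every pair were given as values that did not pass. Up to 4 genes of each other list were taken in the same order. The replication genes, the other lists (origin and replisome, nucleotide synthesis, S phase chromatin and repair, G1 to S regulators, mitosis, cell markers) and the tests were chosen with earlier results of these data known. Alternatives were other scalings, filters, pseudocounts of 1 and 64, eBayes with a trend, no pair block, the median over the probe sets of a gene, and each pair or array left out. The comparisons of Th1 with Th2 at 4 h and with siRNA, and the difference between these, were added after seeing the data.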

Additional observations from a re-analysis of the deposited data

Results flagged for a closer look

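A test of a difference between effects singled out these results. Between 12 h and 4 h, the change in Th1 minus the change in Th2 passed the test for 27 of the 43 replication genes. Among the licensing and fork genes the difference was 1.88 for Mcm3, 1.17 for Mcm5, 1.77 for Mcm6, 1.82 for Mcm7, 1.26 for Gins2, 1.46 for Timeless and 1.79 for Tipin, each larger in Th1. It was also larger in Th1 for Prim1 (2.14), Rfc3 (2.27), Rfc4 (1.58), Lig1 (1.47) and Rrm1 (1.33). The value was negative for Ung (−1.74), Rfc1 (−1.33), Rpa1 (−0.72) and Ccne1 (−0.66), and of these Rfc1 and Rpa1 fell in Th1. The Th1 times lie on different kinds of array by 3′ bias and the Th2 times on 1 kind, so cell type and kind of array cannot be told apart.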

How the results depend on the processing

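Of the counts and medians over the replication genes, 326 stayed within 1.5 times (counts) or 1 SD over pairs (medians) of the value reported and 63 moved under an alternative. Of the values of named genes, 4611 kept direction and side of the threshold, 427 no longer passed, 22 passed that had not and 23 changed sign. Unless stated, the cause of a change was not tested. Without a replicate block, 1 gene passed for Th1 minus Th2, and no other count left 1.5 times its reported value under that setting. Leaving out 1 pair gave 2 to 4 genes for Th1 minus Th2, and leaving out both 12 h pairs 0, while the deposited values gave 7. For 12 h minus 4 h the count was 0 to 0 with 1 pair left out, fewer pairs being the construction of that alternative. It was 13 on the deposited values, 13 after median centring, 13 with a trend and 0 with a pseudocount of 1.

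In Th1 the median for 12 h minus 4 h was 1.28 on the deposited values, 1.34 after median centring, 1.57 with a filter at the 75th percentile, 1.52 over all probe sets of a gene, and 1.64 and 1.17 with pseudocounts of 1 and 64. In Th2 it was 0.74, 0.76, 0.78 over all probe sets, 0.99 and 0.81, and 0.88 to 0.93 with 1 pair left out (0.91 without DN Trpm4, 0.93 without vector), and the count with a pseudocount of 1 was 0. For the Th1 change minus the Th2 change the median was 0.65 on the deposited values, 0.74 over all probe sets, 0.74 and 0.45 with pseudocounts of 1 and 64, and 0.64 to 0.69 with 1 pair left out, with 17 to 28 genes.

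For Th1 minus Th2 at 4 h the median was −0.99 over all probe sets of a gene and −0.86 with a pseudocount of 64. With siRNA it was 0.52 on the deposited values, 0.61 after median centring, 0.42 over all probe sets, 0.58 and 0.43 with pseudocounts of 1 and 64, and 0.46 to 0.54 with a pair left out (0.46 and 0.48 without a siRNA pair), with 13 to 26 genes. The difference of these differences had medians of −1.63 and −1.25 with those pseudocounts. For Trpm4 inhibition 0 genes passed in any alternative run, and the Th2 median was 0.03 on the deposited values, 0.05 after median centring, 0.04 over all probe sets and −0.00 to 0.03 with a pair left out. For siRNA minus untreated the deposited values gave 26 genes and a median of 0.97, and leaving out 1 array gave 4 to 33 genes and 0.12 to 0.88. For Th1 retrovirus at 12 h minus Th1 siRNA the median was −0.81 on the deposited values and −0.79 after median centring, and 16 to 26 genes passed with 1 array left out.

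Over all probe sets of a gene, sign changed for Brca1 (Th1 minus Th2 at 4 h, 0.30; Trpm4 inhibition, 0.02, and in Th1 0.05), Nasp (12 h minus 4 h in Th1, −0.05), Pclaf (Th1 change minus Th2 change, −0.61), Orc2 (Trpm4 inhibition, 0.05), Rfc1 (Trpm4 inhibition in Th1, 0.00), Gins2 (in Th2, 0.02) and Tyms (Th1 effect minus Th2 effect, −0.25, and retrovirus minus siRNA, −0.63). With 1 pair left out, Cdkn2a for Trpm4 inhibition was −0.33 to 0.04 over both cell types and −0.02 to 0.38 in Th2, and Ticrr was −0.44 to 0.01 in Th2. For siRNA minus untreated Rpa1 was 0.39 on the deposited values, 0.19 after median centring and −0.39 to 0.05 with 1 array left out, and Tk1 was −2.03 to 0.56, highest without untreated Th2. For retrovirus minus siRNA in Th1, the deposited and median-centred values were −0.14 and −0.12 for Cdt1, −0.19 and −0.17 for Hells, and −0.25 and −0.23 for Mcm3. In the narrower promoter window, from 100 bases before the start, the E2F-type motif was in 25% of the 36 genes and 1.45% of all genes. The planned search for a Pcna-binding peptide in proteins was not run. Signal near the floor of 4.0 limits low probe sets such as that of Tyms.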

Other observations

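Genes of other lists around the replication programme also differed between Th1 retrovirus arrays at 12 h and Th1 siRNA arrays. Of 31 regulators of the G1 to S transition, 1 was higher and 15 were lower in Th1 retrovirus arrays at 12 h than in Th1 siRNA arrays, with a median of −0.34. Of 34 further origin and replisome genes 2 were higher and 18 lower, with a median of −0.48. Of 18 genes of S phase chromatin and repair 0 were higher and 11 lower, with a median of −0.62. Of all probe sets 22.2% were higher and 24% lower.

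Of 15 nucleotide synthesis genes outside the replication list, 3 were higher and 4 lower in Th1 than in Th2 at 4 h, with a median of −0.12, against 14.1% and 14.2% of all probe sets, and Dctpp1, a pyrophosphatase of deoxynucleotides, had −2.35. With siRNA 8 were higher and 1 was lower in Th1, with a median of 0.67, against 17.6% and 16.9% of all probe sets, and the 1 lower gene was Samhd1, at −2.43.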
